A study of Mus musculus with 7 samples.

Results

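The cells described here are renal endothelial cells of the mouse, split by which of 2 genes they carried RNA for. Within the authors' cluster 1, cells with at least 1 molecule (UMI, a unique molecular identifier) of Ehd3 and none of Plvap are called glomerular, and cells with at least 1 UMI of Plvap and none of Ehd3 are called peritubular. Of 1001 cells in cluster 1, 565 were glomerular, 66 were peritubular, 17 had both genes and 353 had neither, among 43745 cells in the whole matrix. The cells were chosen by their UMIs of Ehd3 and Plvap, so these genes are left out of all results below, and the values of all other genes are the subject.

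Ehd3 encodes a membrane-shaping ATPase that in the mouse kidney marks the endothelium of the glomerulus, the capillary tuft that filters plasma. Plvap encodes the protein of the diaphragms that close the fenestrae and caveolae of endothelial cells, and it is known from peritubular capillaries, which take up what the tubules reabsorb, and from the ascending vasa recta of the medulla. Glomerular fenestrae in the adult lack such diaphragms, and glomerular endothelium depends on VEGF from the neighbouring podocytes.

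Single cells were profiled with a droplet method that counts transcript 3′ ends in whole kidneys, 7 in all, each from a healthy C57BL/6 mouse that was adult (4 to 8 weeks old). The genotypes included Cdh16CremTmG and SclCremTmG with 1 mouse each and WT with 4 mice. These Cre lines carry the mTmG membrane reporter, and their drivers act in tubule epithelium (Cdh16) and in blood and endothelial cells (Scl). The cells carry a library number of 1 to 7 that could not be tied to a mouse, so all 7 libraries were handled as kidneys of the same kind and genotypes were not compared.

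The libraries held 1383 to 14136 cells and 45 to 252 cells of cluster 1. Glomerular cells numbered 54, 77, 67, 108, 85, 145 and 29 in libraries 1 to 7, and peritubular cells 13, 22, 2, 0, 3, 19 and 7. Among assigned cells the glomerular share was lowest in library 2, at 77.8% (exact Clopper-Pearson 95% interval 68.3% to 85.5%), and was 100% in library 4 (96.6% to 100%), where the intervals cover counting error alone. These are shares of captured and assigned cells, not of the tissue. Libraries 1, 2, 6 and 7 had at least 5 cells of each kind, and the comparison below rests on them, with 305 glomerular and 61 peritubular cells.

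**Figure D1:**
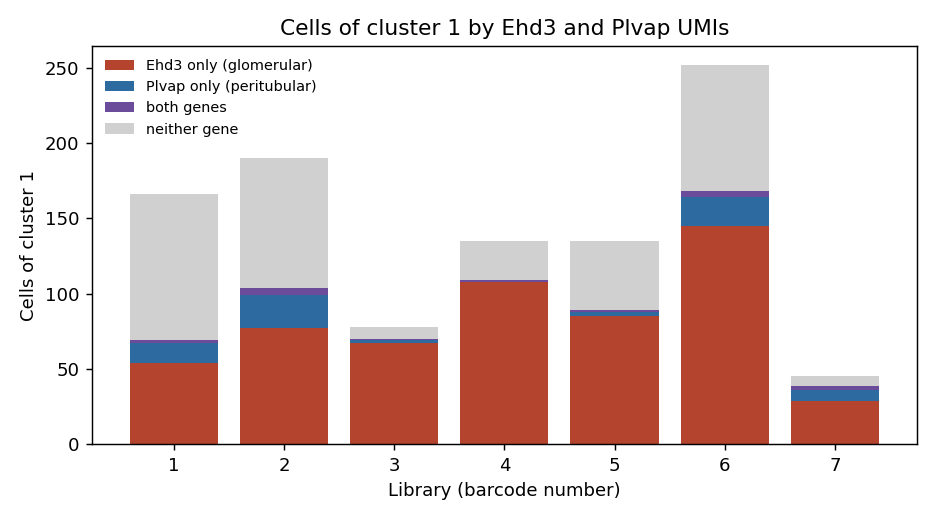
Number of cluster 1 cells (vertical axis) in each of the 7 libraries (horizontal axis), stacked by whether Ehd3 only, Plvap only, both genes or neither gene had a UMI. Cells with Ehd3 outnumbered cells with Plvap in each library, and library 4 held 108 cells with Ehd3 only and 0 with Plvap only.

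How far the gene pair can be trusted was read from its detection. Of the glomerular cells 93 lay just inside the threshold with a single Ehd3 UMI, 83 had 2, 90 had 3 and 299 had more, with a median of 4. Of the peritubular cells 40 had a single Plvap UMI, 9 had 2, 5 had 3 and 12 had more, with a median of 1 and a highest value of 15. Just outside the threshold stood the 353 cells with 0 UMIs of either gene. Outside cluster 1 an Ehd3 UMI was found in 403 of 42744 cells (0.943%) and a Plvap UMI in 23 (0.0538%), at a median of 2345 UMIs per cell, against 1658 in cluster 1. In cluster 3, which had the highest level of the proximal tubule markers and a median of 2281 UMIs, the shares were 0.321% for Ehd3 and 0.0302% for Plvap.

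Both kinds of cell carried endothelial RNA. The 12 pan-endothelial markers summed to 4539 CPM (UMI counts after scaling each sum to a common total) in cluster 1 and to at most 784 CPM in any other cluster. A UMI of these markers was found in 563 of 565 glomerular and 66 of 66 peritubular cells. Per library sum they reached 5425 to 8096 CPM in glomerular and 4048 to 6686 CPM in peritubular cells. Fibroblast and urothelial markers had 0 UMIs in either kind. Mural cell markers had a UMI in 34 glomerular cells (6.02%) and 6 peritubular cells (9.09%). Podocyte markers had a UMI in 344 of 565 glomerular and 38 of 66 peritubular cells, and summed to 452 to 1218 CPM in glomerular and 385 to 794 CPM in peritubular sums. Most of these UMIs were from Podxl (623 UMIs in glomerular and 64 in peritubular cells), which endothelial cells express too. Synpo, which encodes an actin-associated protein of podocytes, had 83 UMIs in 16 glomerular cells (2.83%) and 11 UMIs in 9 peritubular cells (13.6%). Its pooled levels were 71.6 CPM in glomerular and 72.5 CPM in peritubular cells. The slit diaphragm gene Nphs1 had 1 UMI in glomerular and 0 in peritubular cells. Markers of the proximal tubule had UMIs in 560 glomerular and 62 peritubular cells, with summed levels of 3660 to 11865 CPM in glomerular and 2063 to 14302 CPM in peritubular sums. The part of such RNA in the results was not tested.

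Median UMIs per cell differed by less than the spread between libraries. Over the 4 libraries the glomerular minus peritubular difference averaged 0.00 ± 0.25 on the log2 scale (SD, n = 4; exact paired permutation test, two-sided, p = 1). The median mitochondrial share averaged 9.65% in glomerular and 7.81% in peritubular cells and was higher in glomerular cells in 4 of 4 libraries (exact p = 0.125, the smallest that 4 pairs allow). In the whole series 1962 cells share a barcode with a cell of another library, 28 of them assigned cells, and no barcode was shared between assigned cells of different libraries.

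Glomerular cells carried more RNA for the plasminogen activator Plat, the VEGF receptor genes Kdr and Nrp1 and the imprinted noncoding RNA Meg3, and less for Igfbp3, Rgcc, Cd93, Sox17 and the actin-binding peptide gene Tmsb4x. UMIs were summed per library and kind of cell and tested with edgeR's quasi-likelihood test with a term for each library. Of 942 genes tested, 96 (10.2%) passed an adjusted p under 0.05. In glomerular cells 53 (5.63%) were higher and 43 (4.56%) lower, and 45 and 27 of these by at least 2-fold. The median log2 fold change over all genes tested was 0.05. The filter on low counts could be met through the sums of a single kind of cell. Meg3, Tmcc3, Gchfr, Mapt, Slco2a1 and Lifr entered the test through their glomerular sums, and Igfbp3, Rgcc and Cd93 through their peritubular sums. For these genes no sum of the other kind of cell reached the level that the filter asks for. Their calls and folds are therefore not independent of how they entered the test. The glomerular and peritubular library sums did not overlap for 40 of the 53 higher and 25 of the 43 lower genes, and over all genes tested they did not overlap for 108 (11.5%). Without library 1 the counts were 32 higher and 28 lower, and without library 2, which holds the most peritubular cells, 22 higher and 24 lower.

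**Figure D2:**
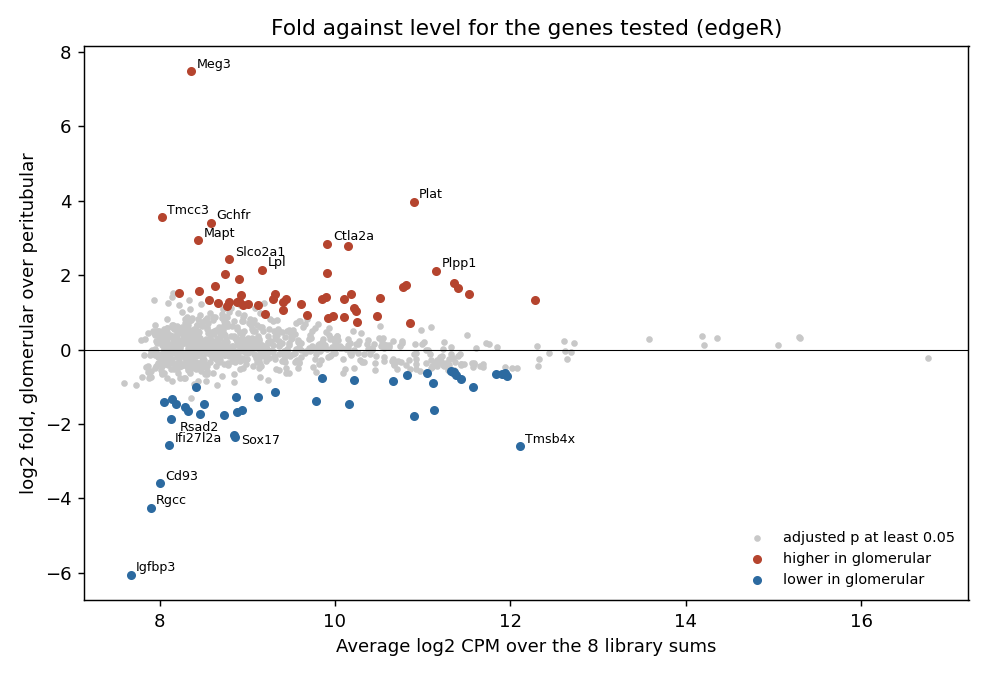
Log2 fold change, glomerular over peritubular (vertical axis), against the average log2 CPM over the library sums (horizontal axis) for the genes tested, with Ehd3 and Plvap left out. Red points are the 53 higher genes and blue points the 43 lower genes at an edgeR adjusted p under 0.05, and the point of Meg3 is a fitted value with 0 UMIs in peritubular cells.

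The promoters of 4 of the called genes are shown here, as the GRCm38.p6 windows given by RefSeq from 250 bases before to 50 bases after the transcript start. Kdr and Nrp1, receptors for VEGF, were higher in glomerular cells, and Igfbp3 and Rgcc had the 2 largest falls. The folds of Kdr and Nrp1 were the smallest of the 14 leading higher genes. Capitals mark the hexamers CCGGAA or TTCCGG (the core bound by ETS factors) and CCACCC or GGGTGG (a core bound by KLF factors), read on both strands and not overlapping each other.
Kdr promoter, chr5:75978406-75978705, minus strand: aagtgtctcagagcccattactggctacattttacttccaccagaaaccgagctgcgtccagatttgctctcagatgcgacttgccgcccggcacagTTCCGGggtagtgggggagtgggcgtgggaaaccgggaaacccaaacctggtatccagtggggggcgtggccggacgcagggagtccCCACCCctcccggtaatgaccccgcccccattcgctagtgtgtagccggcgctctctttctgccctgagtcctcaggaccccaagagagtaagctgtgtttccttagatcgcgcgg
Nrp1 promoter, chr8:128358823-128359122, plus strand: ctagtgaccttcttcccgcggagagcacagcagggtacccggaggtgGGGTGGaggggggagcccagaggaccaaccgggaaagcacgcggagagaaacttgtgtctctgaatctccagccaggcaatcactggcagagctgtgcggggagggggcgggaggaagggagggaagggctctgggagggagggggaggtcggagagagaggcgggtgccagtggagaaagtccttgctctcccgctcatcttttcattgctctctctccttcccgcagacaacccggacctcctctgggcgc
Igfbp3 promoter, chr11:7213874-7214173, minus strand: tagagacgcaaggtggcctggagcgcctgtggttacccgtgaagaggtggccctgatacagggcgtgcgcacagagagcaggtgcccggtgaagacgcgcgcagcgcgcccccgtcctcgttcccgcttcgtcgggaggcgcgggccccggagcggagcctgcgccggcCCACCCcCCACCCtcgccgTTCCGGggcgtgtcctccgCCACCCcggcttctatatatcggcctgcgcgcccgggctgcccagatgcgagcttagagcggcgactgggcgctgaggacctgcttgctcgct
Rgcc promoter, chr14:79301586-79301885, minus strand: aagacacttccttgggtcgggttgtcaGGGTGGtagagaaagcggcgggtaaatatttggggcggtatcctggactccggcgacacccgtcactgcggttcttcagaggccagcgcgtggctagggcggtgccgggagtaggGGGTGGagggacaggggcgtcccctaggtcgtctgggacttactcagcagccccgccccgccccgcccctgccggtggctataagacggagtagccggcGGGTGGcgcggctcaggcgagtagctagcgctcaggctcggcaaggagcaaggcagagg
The Kdr window held 1 ETS and 1 KLF hexamer, that of Nrp1 1 KLF hexamer, that of Igfbp3 1 ETS and 3 KLF hexamers and that of Rgcc 3 KLF hexamers. The windows of Gchfr and Slco2a1, higher genes with larger folds that are not shown, held 0 ETS and 0 KLF hexamers. Among 32851 RefSeq windows 14.9% held the ETS and 31.5% the KLF hexamer, and among the 570 windows of genes tested 30.2% held the ETS and 37.9% the KLF hexamer. Of the 28 genes named in the next paragraphs, 12 had exactly 1 window. The ETS hexamer stood in 1 of 5 such windows of higher and 3 of 7 of lower genes, and the KLF hexamer in 3 of 5 windows of higher and 4 of 7 of lower genes. A SOX hexamer (ACAATG or CATTGT) was also searched and stood in 0 of 5 windows of higher and 1 of 7 of lower genes, against 12.6% of all windows and 7.72% of those of genes tested. A match of letters is a description and not a binding site.

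Among ligand-dependent receptors, the VEGF receptor Kdr (ENSMUSG00000062960, chromosome 5, 75932827 to 75978458, minus strand) had 1401, 1583, 1258 and 2204 CPM in the glomerular sums of libraries 1, 2, 6 and 7, against 388, 398, 706 and 317 CPM in the peritubular sums. The glomerular sums were higher in each of the 4 libraries and did not overlap the peritubular ones. In library 5, outside the test, glomerular cells had 670 CPM, below the 706 CPM of peritubular library 6. The log2 fold change was 1.74 ± 0.25 (± SE, edgeR adjusted p = 0.000166). With at least 2 UMIs of the defining gene per cell, which left 2 libraries, it was 1.04 with an edgeR adjusted p of 0.117.

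Its co-receptor Nrp1 (ENSMUSG00000025810, chromosome 8, 128358604 to 128503363, plus strand) had 2802, 2493, 1902 and 2487 CPM in glomerular and 863, 614, 739 and 582 CPM in peritubular sums. Again no library of either kind reached the range of the other. The log2 fold change was 1.78 ± 0.20 (edgeR adjusted p = 9.52e-06). Flt1, the decoy receptor of the family, had a log2 fold change of -0.62 ± 0.21, short of the threshold (edgeR adjusted p = 0.0699), as were the angiopoietin receptor Tek (0.06 ± 0.36) and the phosphatase Ptprb (0.25 ± 0.22). Of 16 VEGF and angiopoietin genes listed 5 could be tested, 2 of them were higher and 0 lower, and the median was 0.25. Over all genes tested 5.63% were higher and 4.56% lower.

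Plat, the tissue plasminogen activator gene (ENSMUSG00000031538, chromosome 8, 22757727 to 22782844, plus strand), had 2028, 2802, 1130.25 and 1837 CPM in glomerular and 43.1, 116, 225 and 106 CPM in peritubular sums. The lowest glomerular sum lay above the highest peritubular sum. Its log2 fold change was 3.98 ± 0.33 (edgeR adjusted p = 3.24e-07), the largest rise besides that of Meg3. A Plat UMI was found in 482 of 565 glomerular cells (85.3%) and 9 of 66 peritubular cells (13.6%), and in 0.347% of cluster 3 cells. With every cell thinned to 1000 UMIs, which left 512 glomerular and 56 peritubular cells, the shares were 77.7% and 5.36%. In libraries 3, 4 and 5, which were not part of the test, glomerular cells had 7043, 6205 and 2637 CPM, so libraries 3 and 4 stood above the other 5. Of the other coagulation genes tested, thrombomodulin (Thbd) was lower and Anxa2 did not pass the test (-0.13 ± 0.30).

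Meg3 (ENSMUSG00000021268, chromosome 12, 109541001 to 109571726, plus strand) had 258, 294, 183 and 381 CPM in glomerular sums and 0 UMIs in each peritubular sum. That made 132 UMIs in glomerular and 0 in peritubular cells, at least 11.2-fold higher in glomerular cells with the peritubular level set to 3 counts over the 4 sums. Meg3 entered the test through its glomerular sums alone and passed it (edgeR adjusted p = 0.000207). Meg3 UMIs came from 72 of 565 glomerular cells (12.7%), with up to 20 in a cell, and from 0 of 66 peritubular cells, which allows a share of up to 4.55% of cells with a UMI. They were present in glomerular cells of all 7 libraries, from 4 cells in library 7 to 18 in library 6.

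Gchfr, the feedback regulator of tetrahydrobiopterin synthesis, had a log2 fold change of 3.40 ± 0.53, with 246, 394, 226 and 381 CPM in glomerular and 0, 49.8, 32.1 and 0 CPM in peritubular sums. Mapt, which encodes the microtubule-binding protein tau, had 2.94 ± 0.57, the prostaglandin transporter Slco2a1 2.42 ± 0.42 and the lipoprotein lipase gene Lpl 2.15 ± 0.41. These 4 genes had edgeR adjusted p-values of 0.000269, 0.0021, 0.000803 and 0.00193, and none of their sums in the test overlapped between kinds of cell. In libraries 3 and 4, outside the test, glomerular Lpl was 151 and 73.2 CPM, below the 193 CPM of peritubular library 6. In cluster 3 Gchfr, Mapt, Slco2a1 and Lpl were found in 21.1%, 24.9%, 1.14% and 24.0% of cells. Mapt was highest in cluster 2, where podocyte markers were highest too (369 CPM, against 152 CPM in cluster 1). Lpl was highest in cluster 4 (590 CPM, against 223 CPM in cluster 1). What part came from other cells was not tested.

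Plpp1, a lipid phosphate phosphatase gene, had 1610.0, 1978, 1902 and 3137 CPM in glomerular and 474, 315, 739 and 423 CPM in peritubular sums, a log2 fold change of 2.12 ± 0.24. The peptidase inhibitor Pi16 (2.07 ± 0.32), the receptor of leukaemia inhibitory factor Lifr (2.03 ± 0.40) and cyclin D1 (Ccnd1, 1.89 ± 0.39) followed. Ccnd1 was highest in cluster 6 (426 CPM, against 266 CPM in cluster 1) and was found in 30.0% of cluster 3 cells. Tmcc3, a gene of an endoplasmic reticulum membrane protein, had 98 UMIs in glomerular and 2 in peritubular cells, 12.4-fold higher in glomerular cells as a share of all UMIs (exact 95% counting interval 3.35 to 104; edgeR adjusted p = 0.0024). Among clusters Tmcc3 was highest in cluster 11 (259 CPM, against 81.3 CPM in cluster 1). Ctla2a, which encodes a cathepsin inhibitor, had a log2 fold change of 2.85 ± 0.30, but it has a close copy in Ctla2b and the sources used here do not say how shared reads were counted. The sums of all 14 leading higher genes were apart between kinds of cell. With at least 2 UMIs of the defining gene, Ccnd1, Mapt, Slco2a1 and Lifr no longer passed the test, and Lifr also did not pass without library 2 (1.78, edgeR adjusted p = 0.0699).

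**Figure D3:**
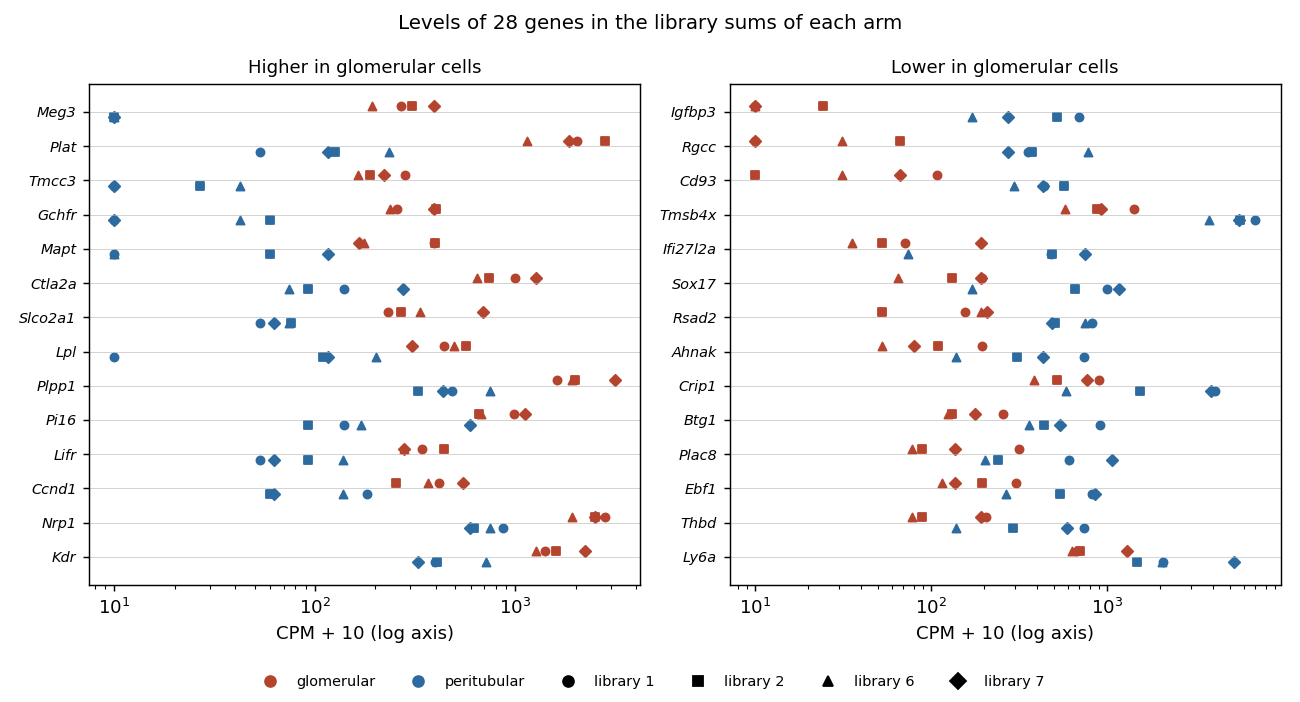
CPM + 10 on a log axis (horizontal) for the 14 leading higher genes (left) and 14 leading lower genes (right), with a symbol for each of libraries 1, 2, 6 and 7. Red symbols are glomerular sums and blue symbols peritubular sums, and they stand apart for 14 of 14 higher and 7 of 14 lower genes. The genes were chosen by fold, adjusted p and sign in these same sums, and 11.5% of all genes tested stood apart.

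In the other direction, Igfbp3 (ENSMUSG00000020427, chromosome 11, 7206086 to 7213923, minus strand), which encodes a carrier of insulin-like growth factors, had the largest fall. It had 0, 14.3, 0 and 0 CPM in glomerular and 690.1, 514, 161 and 265 CPM in peritubular sums. That was 2 UMIs in glomerular and 57 in peritubular cells, a level 112-fold lower in glomerular cells (exact 95% counting interval 29.7 to 949.9; edgeR adjusted p = 6.39e-06). The 2 glomerular UMIs came from a single cell of library 2, while 22 of 66 peritubular cells had Igfbp3. Peritubular cells were uneven in this: 13 of 22 cells had it in library 2, 4 of 13 in library 1, 2 of 19 in library 6 and 1 of 7 in library 7.

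Rgcc, a regulator of cell cycle progression, had 0, 57.3, 21.3 and 0 CPM in glomerular and 345, 365, 771 and 265 CPM in peritubular sums. The log2 fold change was -4.25 ± 0.53 (edgeR adjusted p = 3.41e-05), and no glomerular sum reached the lowest peritubular one. Cd93, which encodes a lectin-like receptor of endothelial and myeloid cells, had 98.3, 0, 21.3 and 56.5 CPM in glomerular and 431, 564, 289 and 423 CPM in peritubular sums, with a log2 fold change of -3.60 ± 0.53. Rgcc UMIs were found in 9 of 565 glomerular and 30 of 66 peritubular cells. Cd93 UMIs were found in 19 glomerular and 31 peritubular cells. In cluster 3 both genes were found in under 0.1% of cells.

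Tmsb4x, whose product binds actin monomers, had 1426, 874, 572 and 918 CPM in glomerular and 6988, 5724, 3821 and 5661 CPM in peritubular sums. The lowest peritubular sum was above the highest glomerular sum, and the log2 fold change was -2.60 ± 0.17 (edgeR adjusted p = 2.11e-08), the smallest of the 942 genes. Nearly every peritubular cell had it (64 of 66), against 292 of 565 glomerular cells and 9.14% of cluster 3 cells. Among clusters its level was highest in cluster 15, where lymphocyte markers were highest too. In the cells compared here, macrophage markers had 20 UMIs in 1.59% of glomerular cells and 1 UMI in 1.52% of peritubular cells. Lymphocyte markers had 9 UMIs in 1.59% of glomerular cells and 0 in peritubular cells.

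Sox17 (ENSMUSG00000025902, chromosome 1, 4490931 to 4497354, minus strand), a transcription factor gene of arterial endothelium, had 184, 122, 55.4 and 184 CPM in glomerular and 992, 647, 161 and 1164 CPM in peritubular sums. It was lower in glomerular cells in 4 of 4 libraries, with a log2 fold change of -2.34 ± 0.28 (edgeR adjusted p = 2.39e-05). Its sums overlapped between kinds of cell, because the peritubular sum of library 6 was under 2 glomerular sums of other libraries. Thbd, which encodes the anticoagulant receptor thrombomodulin, had a log2 fold change of -1.65 ± 0.32, Klf4, a flow-responsive factor, -1.62 ± 0.29 and Foxp1 -1.55 ± 0.32. Of the transcription factor list 7 of 20 were tested, 0 were higher and 2 lower, with a median of -0.12. The shares over all genes tested were 5.63% higher and 4.56% lower.

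The remaining leading genes that were lower in glomerular cells were Ifi27l2a (-2.57 ± 0.39), the antiviral gene Rsad2 (-2.28 ± 0.32), Ahnak (-1.88 ± 0.34), Crip1 (-1.78 ± 0.22), Btg1 (-1.75 ± 0.27), Plac8 (-1.73 ± 0.35), the transcription factor gene Ebf1 (-1.69 ± 0.29) and Ly6a (-1.62 ± 0.18). Rsad2 had 147, 43.0, 183 and 198 CPM in glomerular and 820, 498, 739 and 476 CPM in peritubular sums, which did not overlap. Crip1 ranged from 375 to 897 CPM in glomerular and from 578 to 4098 CPM in peritubular sums, and its sums did overlap. Ifi27l2a, Rsad2 and Ly6a are interferon-inducible, and Ly6a belongs to a family of close copies. Of these genes only Rsad2 was highest in cluster 1. Plac8 and Ifi27l2a were highest in cluster 10 (5454 and 2503 CPM, against 106 and 124 CPM in cluster 1). Crip1 was highest in cluster 16 (4947 CPM, against 933 CPM in cluster 1) and Btg1 in cluster 14 (1138 against 346 CPM). Ahnak, Ebf1 and Ly6a were highest in clusters 15, 13 and 4. What part came from other cells was not tested.

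Gene lists gave the wider picture, and their counts stand beside 5.63% higher and 4.56% lower over all 942 genes tested. Of 18 genes listed for glomerular endothelium, 17 besides Ehd3 were in the matrix and 8 passed the filter on low counts. Of these 8, 6 were higher (Plat, Mapt, Lpl, Pi16, Kdr and Emcn) and 1 lower (Fabp4), with a median log2 fold of 1.90 beside 0.05 over all genes. The sialomucin gene Emcn had 2716, 2193, 1924 and 3108 CPM in glomerular and 863, 481, 835 and 1111 CPM in peritubular sums (1.64 ± 0.20), with no overlap. The fatty acid carrier Fabp4 was lower, at 504, 222, 623 and 495 CPM in glomerular and 949, 1427, 1349 and 899 CPM in peritubular sums (-1.47 ± 0.27). The list was written with knowledge of earlier results from these data, so its count is not independent support for the name of the cells.

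The 9 untested members of that list, too low for the filter, had 683 UMIs in glomerular and 36 in peritubular sums, from totals of 526170 and 133500 UMIs. The transcription factor gene Gata5 had 61.4, 100.3, 72.5 and 42.4 CPM in glomerular sums and 0 UMIs in peritubular sums. Tbx3, a T-box repressor gene, had mean levels of 248 ± 118 CPM in glomerular and 60.5 ± 24.2 CPM in peritubular sums (SD, n = 4 each). Dkk2, a modulator of Wnt signalling, had 934, 437, 102 and 297 CPM in glomerular and 43.1, 16.6, 32.1 and 0 CPM in peritubular sums. The Wnt antagonist gene Sost averaged 125 ± 190.3 CPM in glomerular and 29.3 ± 34.1 CPM in peritubular sums. Smad6 averaged 256 ± 150.1 CPM in glomerular and 45.9 ± 31.1 CPM in peritubular sums. The Sost mean rests on library 7, which had 409.8 CPM in glomerular cells against at most 38.4 CPM in the other 3.

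Genes listed for peritubular endothelium did not move as a group. Of 15 listed, 14 besides Plvap were in the matrix and 7 were tested. Igfbp3 and Rsad2 were lower in glomerular cells, but Igfbp5 and the junction gene Jup (1.27 ± 0.39, edgeR adjusted p = 0.048) were higher, and the median was 0.73. Jup kept its call in 2 of the 12 alternative settings that tested it. Without library 2 its log2 fold change was 0.88 (edgeR adjusted p = 0.305), without library 6 it was 1.46 (adjusted p = 0.114) and without library 7 it was 1.10 (adjusted p = 0.0753). Igfbp5, which encodes another carrier of insulin-like growth factors, had 3392, 3109.7, 1715 and 2416 CPM in glomerular sums, against 1121, 647, 642 and 1693 CPM in peritubular sums. Its log2 fold change was 1.49 ± 0.23, opposite in sign to that of Igfbp3. The sums did not overlap, though the lowest glomerular sum stood only just above the highest peritubular one. In library 5, outside the test, glomerular cells had 1160 CPM, below the 1693 CPM of peritubular library 7. The lipase anchor gene Gpihbp1 had 1.24 ± 0.40 and missed the threshold (edgeR adjusted p = 0.0558). Esm1, untested, had 172, 43.0, 12.8 and 14.1 CPM in glomerular and 819.5, 83.0, 128 and 212 CPM in peritubular sums, so that library 1 was highest in both kinds of cell. The apelin receptor gene Aplnr had 0 UMIs in glomerular and 6 in peritubular cells.

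Markers of arterial vessels and descending vasa recta bear on what else the Plvap cells hold. Of 18 such genes 3 could be tested, 0 were higher and Sox17 was lower. The urea transporter gene Slc14a1, a marker of descending vasa recta, had 0 UMIs in glomerular and 8 in peritubular cells of the test. All 8 lay in a single cell of library 2, which also had 45 UMIs of the water channel gene Aqp1, 5 of Sox17 and 2 of Igfbp3 among its 4260.0 UMIs. Aqp1, which proximal tubule cells express as well, had 59 UMIs in glomerular and 114 in peritubular cells, and 110 of those in peritubular cells came from 8 of 22 cells of library 2. The other genes tested were the ephrin gene Efnb2 (1.01 ± 0.34, edgeR adjusted p = 0.0731), with 154 UMIs in glomerular and 22 in peritubular cells, and the connexin gene Gja4 (-0.75 ± 0.44, edgeR adjusted p = 0.376), with 54 UMIs in glomerular and 23 in peritubular cells. Neither passed the test. Among those too low to test, the chemokine gene Cxcl12 had 4 UMIs in glomerular and 12 in peritubular cells, the endothelin gene Edn1 5 UMIs in glomerular and 12 in peritubular cells, and the connexin gene Gja5 27 UMIs in glomerular and 3 in peritubular cells.

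Among other gene groups, the BMP and TGF-beta list had 5 of 18 genes tested, 2 higher and 0 lower. Over all genes tested the shares were 5.63% higher and 4.56% lower. The co-receptor gene Eng had 823, 659, 567 and 1794 CPM in glomerular and 345, 183, 385 and 529 CPM in peritubular sums (1.37 ± 0.26), and the BMP target Id3 had a log2 fold change of 0.89 ± 0.21. Id1, a related target, was at 0.05 ± 0.24 and did not pass the test. Of 17 flow and vasoactive genes 10 were tested, 2 were higher (the adrenomedullin receptor partner Ramp2, 1.22 ± 0.33, and the kinase gene Sgk1, 1.11 ± 0.23) and 2 lower (Klf4 and Thbd), while Klf2 was at -0.45 ± 0.17 (edgeR adjusted p = 0.11). Without library 2 the calls of Id3 (0.72, edgeR adjusted p = 0.145) and Ramp2 (0.68, adjusted p = 0.292) were lost. That of Ramp2 was lost without library 6 as well (1.31, adjusted p = 0.0914), and that of Sgk1 without library 1 (0.93, adjusted p = 0.0599).

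Of 14 lipid handling genes 4 were tested, and Lpl and the fatty acid hydroxylase Cyp4b1 (1.498 ± 0.305) were higher and Fabp4 lower. Cyp4b1 was highest in cluster 3 (700 CPM, against 590 CPM in cluster 1) and was found in 51.4% of cluster 3 cells. Its call was lost with no replicate block (edgeR adjusted p = 0.15). What part of its RNA came from other cells was not tested. Of 16 antigen presentation and interferon genes 9 were tested, with 0 higher and 3 lower, namely Ly6a, Ifitm3 (-0.78 ± 0.17) and Ly6e (-0.60 ± 0.18), and a median of -0.56. Over all genes tested 5.63% were higher and 4.56% lower, with a median of 0.05. The call of Ly6e was lost in 9 of 13 settings, among them without library 1 (-0.66, edgeR adjusted p = 0.0757), without library 6 (-0.52, adjusted p = 0.15) and without library 7 (-0.52, adjusted p = 0.0795), and that of Ifitm3 in 3 of 13. The class I genes B2m, H2-D1 and H2-K1 were between -0.11 and 0.06 and did not pass the test. Of 13 caveolar and endocytic genes 5 were tested, with Cavin2 (named Sdpr in the matrix) higher at 1.36 ± 0.29 and Ehd4, a relative of Ehd3, lower at -1.27 ± 0.27. Ehd4 and Ehd3 are similar in sequence, and how reads shared by both would have been counted is not given in the sources used here.

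No member passed the test among 2 of 12 Notch, 4 of 18 basement membrane and 8 of 19 immediate early and heat shock genes that were tested. Over all genes tested 10.2% passed, so a count of 0 among so few members says little. The basement membrane genes Col4a1, Col4a2, Hspg2 and Sparc lay between 0.45 and 0.79. Of 18 junction and glycocalyx genes 11 were tested, with Emcn higher and Cd93 lower, and the endothelial genes Pecam1 (-0.12 ± 0.23) and Cdh5 (0.49 ± 0.31) did not pass. In the insulin-like growth factor list of 11 genes 4 were tested, with Igfbp5 higher and Igfbp3 lower. None of the 8 venous and lymphatic genes in the matrix could be tested.

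**Figure D4:**
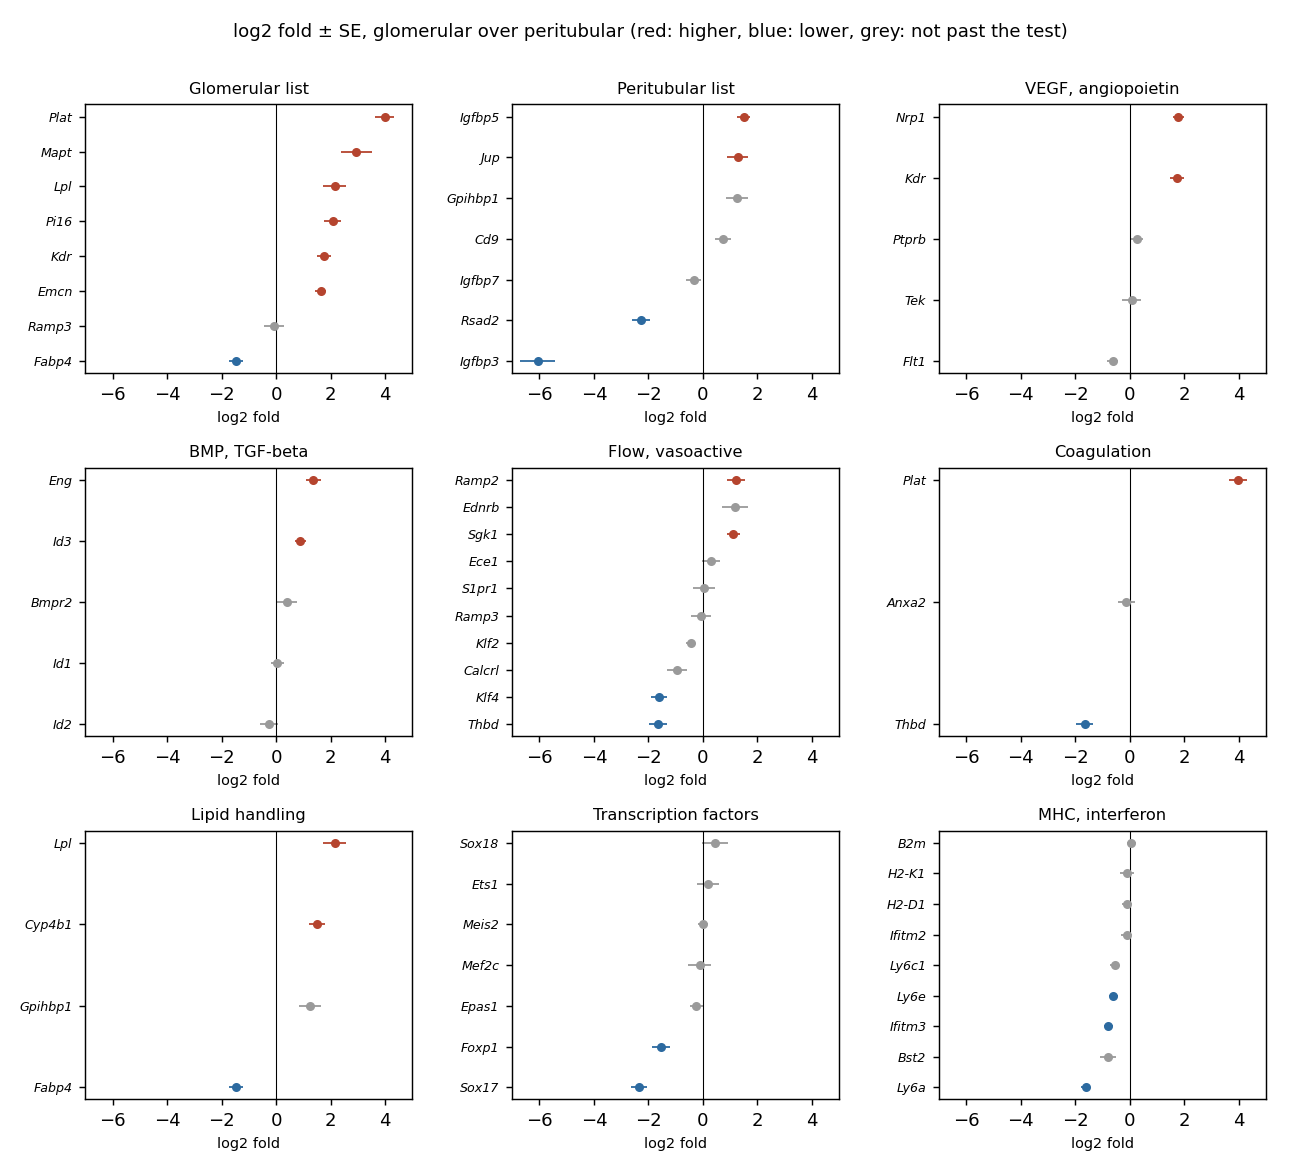
Log2 fold change ± SE, glomerular over peritubular (horizontal axis), of the tested members of 9 gene lists, one panel each. Red points were higher, blue points lower and grey points not past an edgeR adjusted p of 0.05; the glomerular list has 6 red points of 8, and the peritubular list 2 red and 2 blue of 7.

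Ribosomal protein genes, a set chosen after their values were seen, differed in their share of RNA. They made up 12.2%, 10.6%, 9.46% and 11.2% of UMIs in glomerular sums of libraries 1, 2, 6 and 7 and 18.6%, 13.6%, 10.2% and 14.6% in peritubular sums. The glomerular share was smaller in each library. Of 82 tested 0 were higher and 8 lower, against 5.63% higher and 4.56% lower over all genes tested. Of these 82, 79 had a negative log2 fold, with a median of -0.37. Without the filter on low counts, which moved the median of the 942 genes to 0.41, the median of these 82 was 0.00 and 0 were called. The number lower was also 0 without library 2 and with no replicate block, 1 without library 1 and with at least 2 UMIs of the defining gene, 3 with endothelial cells only, 4 with the DESeq2 Wald test and 18 with DESeq2 size factors. Mitochondrially encoded genes made up 11.3%, 14.1%, 17.3% and 12.5% in glomerular and 6.46%, 12.1%, 16.3% and 12.4% in peritubular sums, and 0 of 12 passed the test.

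Not all called genes had their highest level in cluster 1. Of the 53 higher genes 36 had their highest level of all 16 clusters in cluster 1, 8 in a tubule or collecting duct cluster and 9 in another cluster. Of the 43 lower genes 11 had it in cluster 1, 5 in a tubule or collecting duct cluster and 27 in another cluster. The same counts were not made over all 942 genes tested. Glomerular cells were 56.4% of cluster 1 and peritubular cells 6.59%, so levels in cluster 1 follow the glomerular cells more closely. Rgcc had 62.0 CPM in cluster 1 and 67.7 CPM in cluster 13, while its peritubular sums averaged 436 CPM. Klk1 (2.78 ± 0.39) and the calcium-binding protein gene S100g (1.33 ± 0.31) were called higher and are highest in cluster 6, which is among the 2 clusters with the most collecting duct marker RNA. Each had the larger value in glomerular cells in 3 of 4 libraries. The call of Klk1 was lost in 3 of 12 settings and that of S100g in 6 of 13, which included S100g without library 2 (0.80, edgeR adjusted p = 0.237) and without library 6 (1.24, adjusted p = 0.11). With at least 2 cells per sum Klk1 was at 0.64 (adjusted p = 0.60) and S100g at 0.42 (adjusted p = 0.701). Klk1 had 787, 967, 1843 and 28.3 CPM in glomerular and 216, 66.4, 225 and 106 CPM in peritubular sums, and library 5, outside the test, had 2634 CPM in glomerular and 9905 CPM in its 3 peritubular cells. Loop and distal tubule markers summed to 480.4 to 2119.8 CPM in glomerular and 0 to 2954 CPM in peritubular sums, and collecting duct markers to 14.1 to 431 CPM in glomerular and 52.9 to 1702 CPM in peritubular sums; their part in these calls was not tested. S100g had a UMI in 66.0% of glomerular, 72.7% of peritubular and 73.0% of cluster 3 cells.

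Cell by cell the genes were mixed. Of the 14 leading higher genes a glomerular cell had a median of 8 with a UMI and a peritubular cell 3, and of the 14 leading lower genes a glomerular cell had 3 and a peritubular cell 7. These medians follow from genes that were chosen for their difference and are a description. Among the 66 peritubular cells 31 had Sox17, 22 had Igfbp3, 8 had both and 21 had neither. Of the 31 cells with Sox17, 22 also had Klf4 and 10 also had Fbln5, and every peritubular cell with Fbln5 was among them. Igfbp3 was found with Rgcc in 10 cells and with Cd93 in 9. The shares of the single genes multiplied would give 10.0 cells for Igfbp3 with Rgcc, 10.3 with Cd93 and 10.3 with Sox17. For Sox17 they would give 12.7 cells with Klf4 and 4.70 with Fbln5. Detection in a cell depends on its depth, which these counts share.

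The cells of cluster 1 with neither gene were set beside both kinds. Of 353 such cells, 180 had at least 2 pan-endothelial UMIs and no mural, fibroblast or urothelial UMI, and 135 of these lay in libraries 1, 2, 6 and 7, with a median of 1298 UMIs per cell. For the leading higher genes their pooled level was nearer the glomerular level on the log scale for 7 of 14, and for the leading lower genes for 3 of 14. Kdr had 1494 CPM in glomerular and 457 CPM in peritubular cells and 416 CPM in these cells, and Sox17 had 110.2 CPM in glomerular, 667 CPM in peritubular and 618 CPM in these cells. Plat lay between, at 1807 CPM in glomerular, 127 CPM in peritubular and 604 CPM in these cells. Rgcc was an exception among the lower genes, at 24.7 CPM in glomerular, 442 CPM in peritubular and 17.9 CPM in these cells.

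**Figure D5:**
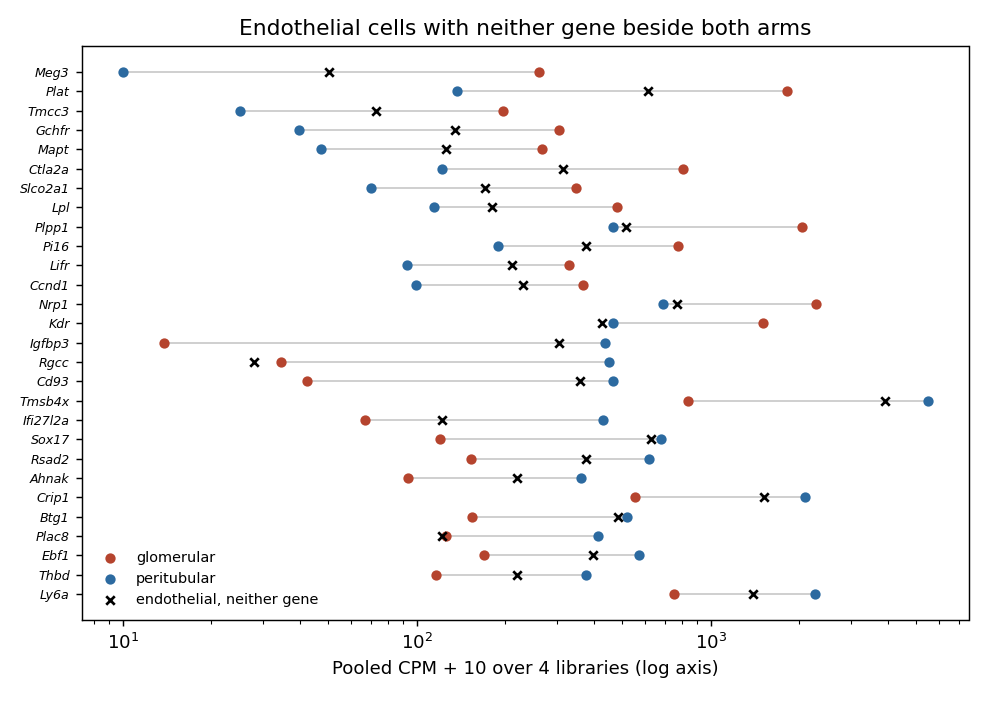
Pooled CPM + 10 on a log axis (horizontal) of the 28 leading genes in glomerular cells (red), peritubular cells (blue) and the 135 endothelial cells with neither Ehd3 nor Plvap (crosses), over libraries 1, 2, 6 and 7. The crosses of Kdr, Nrp1, Sox17 and Btg1 lie close to the peritubular points and those of Rgcc and Plac8 close to the glomerular points.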

How the data were processed

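Single cells of 7 kidneys were profiled with a droplet method, per the labels. Cell Ranger 1.3, STAR and mm10 (GRCm38.p4) are named in the submitters' processing notes. The deposited matrix holds UMI counts of 16272 genes in 43745 cells with the authors' cluster numbers, and the labels state 57979 cells. How cells were filtered and clustered, and how doublets were treated, is not given in the sources used here, and no doublet caller was run. The genotype of 1 mouse and the values of 1 marker gene are not reported here.

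The members, gene lists and tests were chosen with earlier results of these data known. Counts of cluster 1 cells were summed per library (barcode number) and kind of cell where both kinds had at least 5 cells. Sums held 70774 to 234462 UMIs in glomerular and 18901 to 60272 in peritubular cells, with a median of 148 and 35 UMIs per tested gene. They were tested with edgeR 4.0.16 in R 4.3.3 (TMM, filterByExpr, quasi-likelihood F test, library as block, Benjamini-Hochberg over all genes, threshold 0.05). The SE of a log2 fold change was computed as its absolute value divided by the square root of F, and was not estimated separately. The library pairs the sums because both kinds of cell come from the same mouse, and deviations of paired sums correlated at 0.352, 0.384, 0.565 and 0.319. The common biological coefficient of variation was 0.153. Tested on simulated data at these depths, with 850 genes passing the filter, the fit recovered 76% of 2-fold and 100% of 4-fold changes and called 4 of 665 unchanged genes. The simulation gave every gene the common coefficient of variation and the same fold in every library. Its rates therefore do not carry over to genes that vary more.

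By the rule for named genes, the 14 with the largest fold per direction are described among those called, with at least 20 UMIs and the same sign in every library. List members are also named. Klk1, S100g, the ribosomal protein genes and the neither-gene cells were chosen after their values were seen. Folds from counts at or under 3 UMIs were computed as pooled ratios with exact 95% intervals, which cover counting error only. Alternatives were DESeq2 1.42.0, its size factors, no low-count filter, other minimums of cells and UMIs, each library left out, cells thinned to 1000 UMIs, endothelial cells only and no library block. A minimum of 2 cells per sum was added after seeing the data. Gene positions are from GENCODE vM21 on GRCm38, and Python 3.11.15 was used for summaries.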

Additional observations from a re-analysis of the deposited data

Results flagged for a closer look

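Of 57 groups of 4 to 10 library values examined, 4 held a value far from the others, where chance flags about 1 in 20 groups. Igfbp3 had 14.3 CPM in glomerular cells of library 2 and 0 in the other 3 libraries. Ly6a had 1286 CPM in glomerular and 5291 CPM in peritubular cells of library 7, each far above the other libraries of the test of its kind. Libraries 3 and 4, outside the test, had 1871 and 1826 CPM in glomerular cells. Pi16 had 582 CPM in peritubular cells of library 7, against at most 161 CPM in the other peritubular sums of the test.

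Outside cluster 1, Ehd3 was found in 23.8% of the 42 cells of cluster 16 and in 6.57% of the 1308 cells of cluster 14, above the 0.943% over all cells outside cluster 1. Cluster 16 cells had a median of 5703 UMIs and cluster 14 cells 1875. These cells were not part of the comparison.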

How the results depend on the processing

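No call of a gene changed direction under any of 13 alternative settings (at least 10 cells per sum left the same libraries as leaving out library 7, so that 12 were distinct), and 26 of the 96 called genes and 21 of the 28 leading genes passed the test in every setting that tested them. A setting that did not test a gene could not lose its call. Of the 28 leading genes 21 were tested without library 2 and 11 in thinned cells. Igfbp3, Tmcc3 and Ifi27l2a were tested in 8 of the 13 settings and Meg3 in 10. Against 53 higher and 43 lower genes, leaving out each library gave 22 to 53 higher and 24 to 55 lower. Cells thinned to 1000 UMIs gave 19 higher and 19 lower among 321 genes that could be tested, a smaller number by construction. At least 2 UMIs of the defining gene, which left 17 peritubular cells in 2 libraries, gave 29 higher. The DESeq2 Wald test gave 23 higher and 33 lower, and no low-count filter gave 113 higher and 39 lower among 12743 genes, with the median of the 942 genes moved to 0.41. With no replicate block the counts were 28 higher and 21 lower, and Plac8 and Thbd did not pass. Of list members, 15 were higher and 12 lower. They were 8 higher with at least 2 UMIs, 26 higher without the filter and 6 lower in thinned cells. The cause of these shifts was not tested. The other settings kept each count within 1.5 times.

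The 61 peritubular cells of the test gave 133500 UMIs in all, so that a count of 0 there allows a level of up to 22.5 CPM.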
